A study of Mus musculus with 15 samples.

Results

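The dual-specificity MAP kinase phosphatases were followed by messenger RNA in mouse heart through 8 genes, Dusp1, Dusp2, Dusp4, Dusp5, Dusp6, Dusp8, Dusp10 and Dusp16. The 8 are part of a family, named by gene symbol and chosen for description with earlier results of these data known. All 8 were found among the 16658 genes of the deposited expression table. Dusp7 and Dusp9, of the same family, are not among the 8 and stand on a separate list. The table covers 11 libraries. The groups are aPC (activated protein C; libraries aPC-791 and aPC-792), rivaroxaban (Riva-313 and Riva-319), dabigatran (Dabi-202 and Dabi-204), untreated (replicates 17 and 19) and sham (replicates 003, 006 and 007). The labels name 15 samples in these groups, and the other 4 were not analysed here.

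All mice were male C57BL/6 of 8 to 10 weeks. Mice of the aPC group received this anticoagulant and cytoprotective protease at 1 mg/kg 30 min before surgery. Rivaroxaban, an inhibitor of coagulation factor Xa, was given at 3 mg/kg and dabigatran, an inhibitor of thrombin (factor IIa), at 10 mg/kg, each over 7 days, with dosing taken up again 2 h after surgery. In the surgery the left anterior descending coronary artery was closed for 90 min and flow was then restored for 24 h. It is described for the study as a whole and not group by group, so untreated and sham are used here only as group names. The tissue held the infarcted part of the heart, and 500 ng of total RNA went into polyA selection. The labels give each library a number of its own but do not say whether each is a different mouse, so the p-values below measure the spread between libraries.

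MAP kinase phosphatases switch off the ERK, JNK and p38 kinases by taking the phosphate from both the threonine and the tyrosine of the activation loop. Several of them are themselves induced by the kinases they act on, which makes them feedback inhibitors of the cascade. In the heart, ERK, JNK and p38 respond to ischaemia, stretch and inflammation. The 8 genes fall into 3 groups by the place and the substrate of their enzymes. Dusp1, Dusp2, Dusp4 and Dusp5 encode inducible nuclear phosphatases, Dusp6 encodes a cytoplasmic phosphatase of ERK, and Dusp8, Dusp10 and Dusp16 encode phosphatases that prefer JNK and p38.

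Because several of these genes are induced by transcription, the 250 bases before the annotated start were read for the 7 genes that were matched in the RefSeq promoter table of build GRCm38.p6 (Dusp4 was not matched). Of these 7 windows, 3 held one of the searched motifs, and these are shown 5′ to 3′ on the strand of the gene with the matching bases in capitals. The Dusp1 window is chr17:26508473-26508722 on the minus strand, the Dusp5 window is chr19:53528895-53529144 on the plus strand, and the Dusp8 window is chr7:142095285-142095534 on the minus strand. Offsets count from the RefSeq start, which differs from the GENCODE gene spans given below. The Dusp5 window runs past the GENCODE start at 53529109. The Dusp1 and Dusp8 windows lie inside the GENCODE gene spans, and that of Dusp1 overlaps the transcript used for exon length (26505590-26508519).
Dusp1: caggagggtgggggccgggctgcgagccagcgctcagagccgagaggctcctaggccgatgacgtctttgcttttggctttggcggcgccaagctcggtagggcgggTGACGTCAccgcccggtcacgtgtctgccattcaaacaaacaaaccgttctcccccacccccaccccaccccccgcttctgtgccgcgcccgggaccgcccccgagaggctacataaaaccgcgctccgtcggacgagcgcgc
Dusp5: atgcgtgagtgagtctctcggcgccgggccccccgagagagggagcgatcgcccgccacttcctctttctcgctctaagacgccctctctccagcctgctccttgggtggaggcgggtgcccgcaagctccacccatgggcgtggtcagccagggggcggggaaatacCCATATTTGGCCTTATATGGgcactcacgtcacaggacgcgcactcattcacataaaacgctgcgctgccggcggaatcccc
Dusp8: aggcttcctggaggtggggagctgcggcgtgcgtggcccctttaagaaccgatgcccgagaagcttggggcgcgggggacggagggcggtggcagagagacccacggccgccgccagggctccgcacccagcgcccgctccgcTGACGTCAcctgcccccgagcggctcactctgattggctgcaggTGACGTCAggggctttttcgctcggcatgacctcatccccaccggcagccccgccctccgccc
In Dusp1 the capitals mark 1 cyclic AMP response element, TGACGTCA, at -143 to -136 from the start. In Dusp5 they mark 2 CArG boxes, the element bound by serum response factor, which lie side by side at -82 to -73 and -72 to -63. In Dusp8 they mark 2 cyclic AMP response elements, at -107 to -100 and -63 to -56. On both strands of 32817 promoter windows of the same length, the cyclic AMP response element was present in 1.55% and the CArG box in 1.47%, against 2 and 1 of the 7 windows here. The 7 windows were richer in G and C (56.4% to 71.6%) than the median of all windows (52.4%), and the shares were not matched for this. An AP-1 site, TGANTCA, was present in 6.75% of all windows and a kappa B site in 3.90%, and neither was found in the 7. No match overlapped another. These are matches of letters, and binding was not measured.

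Levels are given as CPM (the share of a library that a gene takes, on a common scale for all libraries), obtained from the deposited log2 values, and as CPM per kilobase of exon where genes are set against each other. Per kilobase, Dusp1 was the most abundant in sham hearts at 50.5 ± 13.3 CPM per kilobase (SD, n = 3). Dusp8 stood at 12.7 ± 3.83, Dusp6 at 10.6 ± 0.956 and Dusp16 at 6.54 ± 1.10 CPM per kilobase in the same hearts. Dusp5 followed at 3.88 ± 0.822, Dusp10 at 2.46 ± 0.664, Dusp4 at 1.00 ± 0.146 and Dusp2 at 0.211 ± 0.0367 CPM per kilobase. Across the 11 libraries the reads behind these levels ran from 997 to 4470 for Dusp1, from 974 to 2512 for Dusp8, from 505 to 1793 for Dusp6 and from 749 to 1438 for Dusp16. They ran from 123 to 1173 for Dusp5 and from 126 to 578 for Dusp10. Dusp4 had 43 to 138 reads and Dusp2 only 5 to 77, so that its values carry the largest counting error.

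**Figure D1:**
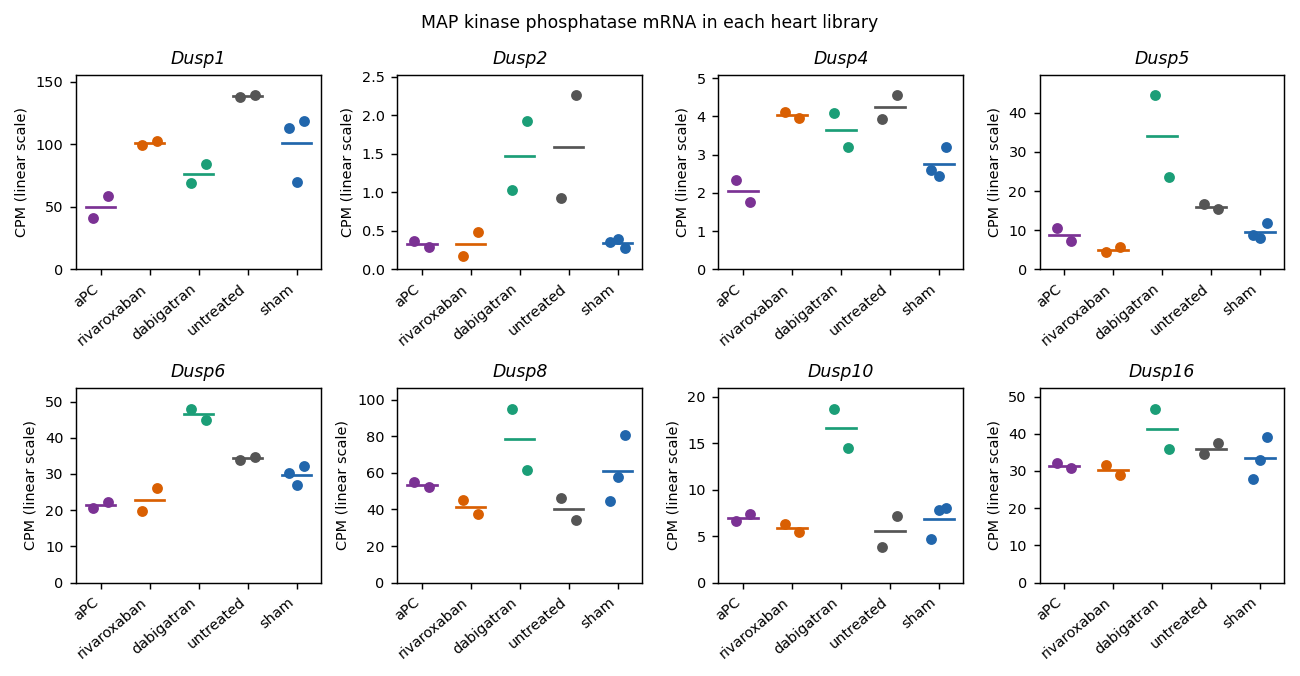
CPM of each phosphatase gene on a linear scale (vertical axis, a scale for each gene) in every library (points) of the 5 groups, with the group mean as a line (2 libraries per group, 3 in sham). Dusp5, Dusp6 and Dusp10 have both dabigatran libraries above all 9 others, and Dusp1 has both untreated libraries above all 9 others.

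The libraries held 26203566 to 36135006 reads on listed genes. The 2 untreated libraries stood farthest apart of all replicates, with an SD of 0.79 for their log2 difference over genes against 0.31 to 0.48 for the other pairs. All comparisons come from 1 limma-trend fit over the 13541 genes that reached a log2 CPM of 0 in at least 3 libraries, with Benjamini-Hochberg adjustment over those genes, and a gene is called at an adjusted p under 0.05. A value after ± on a log2 fold change is its standard error. The fit gives all groups 1 estimate of the spread. When libraries were weighted by their own spread (each untreated library then had a weight of 0.242), or when only the 2 groups compared were fitted, every one of the 9 phosphatase calls that involve the untreated group was lost, with adjusted p between 0.0824 and 0.415. The comparisons also share libraries: the untreated, dabigatran and sham libraries each enter 4 of them, as do those of aPC and rivaroxaban, so similar values in comparisons that share a group are not separate observations. In whole tissue, a change in the number of cells of a type and a change in the RNA per cell cannot be told apart.

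Dusp1 encodes the founding nuclear member, which acts on p38, JNK and ERK and is induced by stress, growth factors and glucocorticoids. Its gene lies at chr17:26505590-26562128 (mm10, minus strand; ENSMUSG00000024190). Dusp1 measured 40.7 and 58.8 CPM in aPC hearts, 99.1 and 103 in rivaroxaban, 68.7 and 84.0 in dabigatran, 138 and 139 in untreated and 113, 70.1 and 118 in sham hearts. The aPC libraries were the lowest of all 11 and the untreated libraries the highest, and neither overlapped with another group. Dusp1 fell in aPC against untreated hearts, with a log2 fold change of -1.50 ± 0.25 (2.82-fold lower; limma adjusted p = 0.00563). That call was kept with each of the 11 libraries left out in turn, with log2 fold changes between -1.76 and -1.23. It was lost with library weights and with only the 2 groups fitted. Dusp1 was also lower in dabigatran than in untreated hearts, by a log2 fold change of -0.86 ± 0.25 (limma adjusted p = 0.0455). This second call rested on few libraries: its adjusted p was 0.214 without Dabi-202, 0.100 without untreated replicate 19 and 0.0739 without Dabi-204. It was 0.0715 without Riva-313 and 0.0716 without Riva-319, 0.0618 without sham 003 and 0.0526 without sham 007, and 0.0513 after quantile normalization. In rivaroxaban hearts the difference from untreated was -0.45 ± 0.25 (limma adjusted p = 0.247), with a 95% interval from -1.01 to 0.10. In order of group means, untreated (7.11 log2 CPM) was followed by rivaroxaban (6.66), sham (6.61), dabigatran (6.25) and aPC (5.61), and no neighbours in that order differed at an adjusted p under 0.05. Against sham, aPC hearts had a log2 fold change of -1.0 ± 0.23 (limma adjusted p = 0.0723), and against rivaroxaban one of -1.04 ± 0.25 (limma adjusted p = 0.0735). Both of these were called with library weights (adjusted p = 0.00813 and 0.00717) and with only the 2 groups fitted (adjusted p = 0.0457 and 0.0194).

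Dusp2 encodes a nuclear phosphatase of ERK and p38 that is best known from activated lymphocytes and myeloid cells. The gene is at chr2:127336159-127338376 (plus strand; ENSMUSG00000027368). Dusp2 was rare: 0.367 and 0.287 CPM in aPC, 0.177 and 0.488 in rivaroxaban, 1.02 and 1.93 in dabigatran, 0.923 and 2.26 in untreated and 0.355, 0.391 and 0.275 in sham hearts. These values stand for 9 and 7 reads, 5 and 17, 27 and 77, 30 and 64, and 12, 13 and 8 reads in the same order. The 4 dabigatran and untreated libraries were all above the 7 of the other groups. Dusp2 entered the test only because 3 of those 4 libraries reached a log2 CPM of 0, so that its differences from the low groups were partly required by the filter. It was higher in untreated than in sham hearts by a log2 fold change of 1.91 ± 0.51 (limma adjusted p = 0.0403) and in dabigatran than in sham hearts by 1.87 ± 0.51 (limma adjusted p = 0.030). It was lower than in untreated hearts by -2.05 ± 0.56 in rivaroxaban (limma adjusted p = 0.0482) and by -1.96 ± 0.56 in aPC hearts (limma adjusted p = 0.0379). Against dabigatran the log2 fold changes were -2.01 ± 0.56 in rivaroxaban (limma adjusted p = 0.0270) and -1.91 ± 0.56 in aPC hearts (limma adjusted p = 0.0338). Dabigatran and untreated hearts differed by -0.04 ± 0.56 (limma adjusted p = 0.965; 95% interval from -1.27 to 1.19). In the order of means, untreated (0.60 log2 CPM), dabigatran (0.56), sham (-1.31), aPC (-1.36) and rivaroxaban (-1.45), dabigatran and sham were the only neighbours that differed at an adjusted p under 0.05.

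Each of these 6 Dusp2 calls was lost when 1 of several libraries was left out. For untreated against sham the adjusted p was 0.242 without untreated replicate 19, between 0.0927 and 0.105 without any of the sham replicates 003, 006 and 007, and 0.0563 and 0.0561 without aPC-791 and aPC-792. For dabigatran against sham it was 0.146 without Dabi-204, 0.0973 without Dabi-202, and between 0.0634 and 0.0841 without any of the 3 sham replicates. For rivaroxaban against untreated it was 0.290 without Riva-313, 0.212 without untreated replicate 19, 0.0918 without Riva-319, and between 0.0676 and 0.0755 without either aPC replicate or any of the 3 sham replicates. For aPC against untreated it was 0.185 without aPC-792, 0.168 without untreated replicate 19, 0.102 without aPC-791, and between 0.0530 and 0.0592 without any of the 3 sham replicates. Against dabigatran, the rivaroxaban call had an adjusted p of 0.210 without Riva-313, 0.122 without Dabi-204 and 0.0652 without Dabi-202. The aPC call against dabigatran had 0.159 without Dabi-204, 0.158 without aPC-792, 0.0973 without aPC-791, 0.0624 without Dabi-202, and 0.0517 and 0.0507 without sham replicates 003 and 006. On a log2(CPM + 1) scale the 6 differences shrank to sizes of 0.86 to 0.92, and that of rivaroxaban against untreated (-0.92) was no longer called (adjusted p = 0.0591).

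Dusp4 encodes a further inducible nuclear phosphatase, of ERK and JNK. Its gene lies at chr8:34807297-34819894 (plus strand; ENSMUSG00000031530). Dusp4 measured 2.33 and 1.76 CPM in aPC, 4.12 and 3.96 in rivaroxaban, 4.09 and 3.20 in dabigatran, 3.94 and 4.55 in untreated and 2.60, 2.44 and 3.20 in sham hearts. The aPC libraries were the 2 lowest of all 11. Dusp4 fell in aPC against untreated hearts, by a log2 fold change of -1.04 ± 0.27 (2.06-fold lower; limma adjusted p = 0.0272). The adjusted p of this call was 0.186 without aPC-792, 0.0588 without aPC-791, 0.0603 without untreated replicate 19, 0.0506 without Riva-313 and 0.0503 without Riva-319. The other 9 comparisons of Dusp4 were not called. The nearest to the threshold was aPC against dabigatran, with a log2 fold change of -0.82 ± 0.27 (limma adjusted p = 0.0525). In order of means, untreated (2.10 log2 CPM), rivaroxaban (2.04), dabigatran (1.88), sham (1.48) and aPC (1.06) had no neighbours that differed at an adjusted p under 0.05. Rivaroxaban and dabigatran hearts differed by 0.15 ± 0.27 (limma adjusted p = 0.719; 95% interval from -0.44 to 0.75), although these drugs stood at opposite ends for Dusp5.

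Dusp5 encodes the nuclear phosphatase that is specific for ERK and is itself induced by ERK signalling. On the genome it lies at chr19:53529109-53542431 (plus strand; ENSMUSG00000034765), carries the paired CArG boxes printed above, and overlaps an antisense gene, AC137853.2. Because the strand setting of the counting is not given in the sources used here, reads of the antisense gene could be among those of Dusp5. Dusp5 measured 10.6 and 7.13 CPM in aPC, 4.37 and 5.57 in rivaroxaban, 44.4 and 23.5 in dabigatran, 16.6 and 15.3 in untreated and 8.81, 8.07 and 11.9 in sham hearts. The 2 rivaroxaban libraries were the lowest of all 11, the 2 dabigatran libraries the highest, and the untreated pair came next. The range of its group means, 2.70 on the log2 scale, was wider than that of 97.7% of the genes tested, the widest among the 8.

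Dusp5 was lower in rivaroxaban than in dabigatran hearts by a log2 fold change of -2.70 ± 0.32, or 6.48-fold (limma adjusted p = 0.00065). It was lower in aPC than in dabigatran hearts by -1.89 ± 0.32 (limma adjusted p = 0.00404). Both calls were kept with each of the 11 libraries left out in turn and in all 7 other settings that were tried, with log2 fold changes from -3.16 to -2.24 and from -2.35 to -1.43 over the left-out libraries. Dusp5 was higher in dabigatran than in sham hearts by 1.77 ± 0.29 (limma adjusted p = 0.0041), and by 1.31 with an adjusted p of 0.0608 without Dabi-202. It was lower in rivaroxaban than in untreated hearts by -1.68 ± 0.32 (limma adjusted p = 0.0168), with an adjusted p of 0.138 without Riva-313 and 0.0694 without Riva-319. The differences of dabigatran from untreated (1.01 ± 0.32; limma adjusted p = 0.0615), of aPC from untreated (-0.87 ± 0.32; limma adjusted p = 0.0809) and of untreated from sham (0.75 ± 0.29; limma adjusted p = 0.112) were not called. In the order dabigatran (5.02 log2 CPM), untreated (4.0), sham (3.25), aPC (3.13) and rivaroxaban (2.32), no neighbours differed at an adjusted p under 0.05.

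Dusp6 encodes a cytoplasmic phosphatase of ERK and is a feedback gene of the fibroblast growth factor and ERK pathway. Its gene lies at chr10:99263231-99267489 (plus strand; ENSMUSG00000019960). Dusp6 measured 20.6 and 22.3 CPM in aPC, 19.7 and 26.2 in rivaroxaban, 48.0 and 44.8 in dabigatran, 33.9 and 34.7 in untreated and 30.2, 26.8 and 32.1 in sham hearts. The 4 aPC and rivaroxaban libraries lay below the other 7, the untreated pair lay above sham, and the dabigatran pair lay above all. Dusp6 was lower than in dabigatran hearts by a log2 fold change of -1.03 ± 0.17 in rivaroxaban (limma adjusted p = 0.00259) and of -1.11 ± 0.17 in aPC hearts (limma adjusted p = 0.00249). Like those of Dusp5, these 2 calls were kept with each library left out and in all 7 other settings. Dusp6 was higher in dabigatran than in sham hearts by 0.65 ± 0.15 (limma adjusted p = 0.0184), with an adjusted p of 0.147 without Dabi-202, 0.0538 without sham 003 and 0.0612 without sham 006. It was lower in aPC than in untreated hearts by -0.68 ± 0.17 (limma adjusted p = 0.0241), with an adjusted p of 0.117 and 0.114 without aPC-791 and aPC-792. In rivaroxaban against untreated hearts the difference was -0.59 ± 0.17 and not called (limma adjusted p = 0.0546). Dabigatran and untreated hearts differed by 0.44 ± 0.17 (limma adjusted p = 0.107). Ordered by mean, dabigatran (5.54 log2 CPM), untreated (5.10), sham (4.89), rivaroxaban (4.51) and aPC (4.43) had no neighbours that differed at that threshold. The spread within groups was small for this gene, with a residual SD of 0.15 on the log2 scale, against 0.57 for Dusp2.

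Dusp8 encodes a phosphatase of JNK and p38 that is abundant in brain and heart. It is found at chr7:142079490-142095843 (minus strand; ENSMUSG00000037887). Dusp8 measured 54.9 and 52.1 CPM in aPC, 45.1 and 37.4 in rivaroxaban, 95.2 and 61.8 in dabigatran, 46.3 and 34.4 in untreated and 44.5, 57.9 and 80.8 in sham hearts. The sham libraries ran across most of that range and overlapped with the dabigatran, aPC, rivaroxaban and untreated libraries. Dusp8 was lower in rivaroxaban than in dabigatran hearts by a log2 fold change of -0.90 ± 0.28 (limma adjusted p = 0.0428). The adjusted p was 0.318 without Dabi-202, 0.203 and 0.116 without Riva-319 and Riva-313, 0.0618 without either of aPC-791 and aPC-792, 0.0649 without sham replicate 006, and 0.0593 after centring each library on its median. Dabigatran against untreated hearts gave 0.94 ± 0.28 and was not called (limma adjusted p = 0.0517). Dusp8 had its lowest mean in untreated hearts (5.32 log2 CPM), with rivaroxaban (5.36), aPC (5.74), sham (5.89) and dabigatran (6.26) above it, and no neighbours in that order differed at an adjusted p under 0.05. Dusp1, whose window also held a cyclic AMP response element, had its highest mean in untreated hearts. Any part of the element in either pattern was not tested.

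Dusp10 encodes a phosphatase of JNK and p38 with roles in innate immunity and T cells. The gene is at chr1:184013302-184075636 (plus strand; ENSMUSG00000039384). Dusp10 measured 6.61 and 7.38 CPM in aPC, 6.32 and 5.48 in rivaroxaban, 18.7 and 14.5 in dabigatran, 3.88 and 7.20 in untreated and 4.73, 7.83 and 8.05 in sham hearts. The 2 dabigatran libraries were set apart above the other 9, which lay between 3.88 and 8.05 CPM. Dusp10 was higher in dabigatran than in untreated hearts by a log2 fold change of 1.63 ± 0.34 (3.09-fold; limma adjusted p = 0.0125) and than in sham hearts by 1.29 ± 0.31 (limma adjusted p = 0.0185). Against dabigatran, it was lower in rivaroxaban hearts by -1.47 ± 0.34 (limma adjusted p = 0.0121) and in aPC hearts by -1.23 ± 0.34 (limma adjusted p = 0.0271). Without Dabi-202 all 4 calls were lost, with adjusted p of 0.0911 against untreated, 0.178 against sham, 0.108 for rivaroxaban and 0.157 for aPC. The call against sham was also lost without sham replicate 003 (0.0592), that of rivaroxaban without Riva-313 (0.0625) or Riva-319 (0.0769), and that of aPC without aPC-791 (0.125) or aPC-792 (0.101) and after quantile normalization (0.0668). The other 4 groups had means from 2.42 to 2.82 log2 CPM, against 4.05 in dabigatran hearts, and none of their 6 comparisons was called.

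Dusp16 encodes a phosphatase of JNK that moves between nucleus and cytoplasm. The locus, chr6:134715468-134792625 (minus strand; ENSMUSG00000030203), overlaps an antisense gene, Gm36328, so the same doubt about strand applies as for Dusp5. Dusp16 measured 32.1 and 30.7 CPM in aPC, 31.7 and 28.9 in rivaroxaban, 46.8 and 36.0 in dabigatran, 34.5 and 37.5 in untreated and 28.0, 32.9 and 39.2 in sham hearts. None of its 10 comparisons was called. The largest was rivaroxaban against dabigatran, with a log2 fold change of -0.44 ± 0.19 (limma adjusted p = 0.117; 95% interval from -0.85 to -0.02). The range of its group means, 0.44 on the log2 scale, was wider than that of only 19.1% of the genes tested.

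The calls of the 8 genes fell in the 7 comparisons in which calls over all genes were also frequent. In rivaroxaban against dabigatran, 5 of the 8 genes were called, all lower in rivaroxaban (Dusp2, Dusp5, Dusp6, Dusp8 and Dusp10), while 23.3% of all genes were called in either direction and 14.0% lower. The median log2 fold change was -0.96 over the 8 and -0.00 over all genes tested. In aPC against dabigatran, 4 were called, all lower in aPC (Dusp2, Dusp5, Dusp6 and Dusp10), beside 21.5% of all genes in either direction and 12.3% lower, with medians of -0.96 and -0.05. In dabigatran against sham, 4 were called, all higher in dabigatran (Dusp2, Dusp5, Dusp6 and Dusp10), beside 18.5% of all genes in either direction and 11.7% higher, with medians of 0.52 and 0.01. Without Dabi-202 these counts were 2, 2 and 0. The first was 2 without Riva-313 and 3 without Riva-319, the second was 2 without either aPC replicate, and the third was 1 and 2 without sham replicates 003 and 006. Leaving Dusp2 aside, since the filter let it pass only through its high groups, the 3 counts were 4, 3 and 3 of 7, with medians of -0.90, -0.82 and 0.40.

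In aPC against untreated hearts, 4 of the 8 were called, all lower in aPC (Dusp1, Dusp2, Dusp4 and Dusp6), beside 17.6% of all genes in either direction and 10.2% lower, with medians of -0.77 and 0.07. The count was 1 without either aPC replicate and 2 without untreated replicate 19. In rivaroxaban against untreated, 2 were lower (Dusp2 and Dusp5), beside 8.47% of all genes in either direction and 4.45% lower, with medians of -0.35 and 0.02. That count was 0 without Riva-313 or Riva-319, and 1 without untreated replicate 19, either aPC replicate or any of the 3 sham replicates. In dabigatran against untreated, Dusp10 was higher and Dusp1 lower, beside 13.8% of all genes called, 8.71% higher and 5.08% lower, with medians of 0.31 and 0.05. That count was 0 without Dabi-202, and 1 without untreated replicate 19 or either rivaroxaban replicate. In untreated against sham, only Dusp2 of the 8 was called, beside 10.6% of all genes, with medians of 0.35 and -0.03. This count of 1, near the background, was 0 without untreated replicate 19, either aPC replicate or any of the 3 sham replicates. Leaving Dusp2 aside, the counts of these 4 comparisons were 3, 1, 2 and 0 of 7.

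In the remaining comparisons no phosphatase gene was called by limma. In rivaroxaban against sham, 0 of all genes were called and the medians were -0.16 and -0.01, with 3 of the 8 at an unadjusted p under 0.05 beside 761 of 13541 genes. In aPC against sham, 1.17% of all genes were called and the medians were -0.13 and 0.03, with 2 of the 8 at an unadjusted p under 0.05 beside 2307 genes. In aPC against rivaroxaban, 1.54% were called and the medians were 0.07 and 0.02, with 3 of the 8 at an unadjusted p under 0.05 beside 2836 genes. Without untreated replicate 17 or 19, 2 of the 8 were called in aPC against rivaroxaban and 1 in aPC against sham, where 1 was also called without sham replicate 006. With library weights the counts were 3 (Dusp1, Dusp4 and Dusp5) in aPC against rivaroxaban and 2 (Dusp1 and Dusp6) in aPC against sham.

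**Figure D2:**
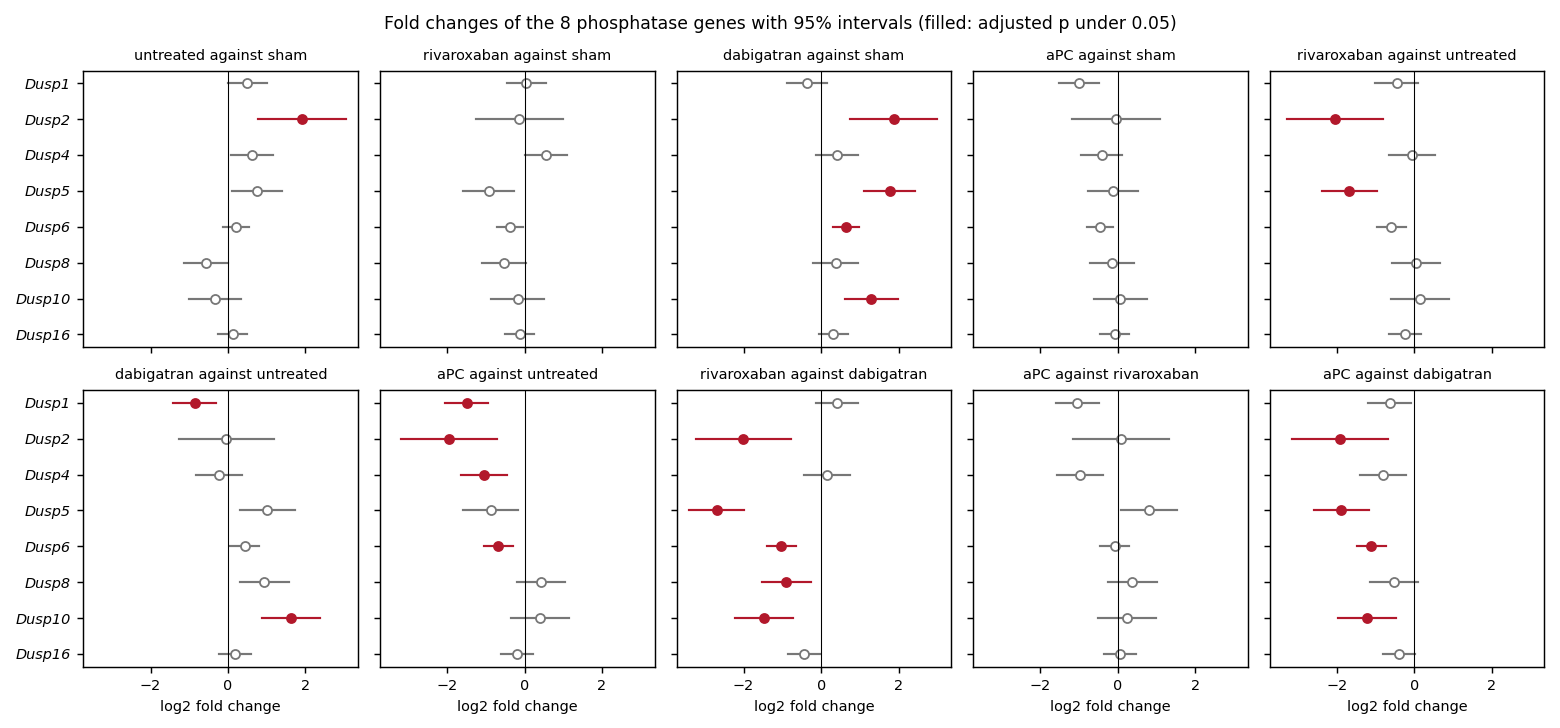
Log2 fold changes (horizontal axis) of the 8 phosphatase genes in the 10 comparisons, 1 panel each, with 95% intervals from the limma fit; filled red points have an adjusted p under 0.05. The filled points lie left of 0 where rivaroxaban or aPC is set against dabigatran (5 and 4 genes) and where aPC is set against untreated (4 genes). Without Dusp2, which passed the filter only through its high groups, these counts are 4, 3 and 3 of 7.

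Over the 22 calls in all comparisons, 173 of 242 values with 1 library left out were still called, and no fold change turned its sign. The plot of adjusted p by setting shows how far each call lay from the threshold. Only the calls of Dusp5 and Dusp6 in rivaroxaban and in aPC against dabigatran stayed below 0.05 in every setting that was run.

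**Figure D3:**
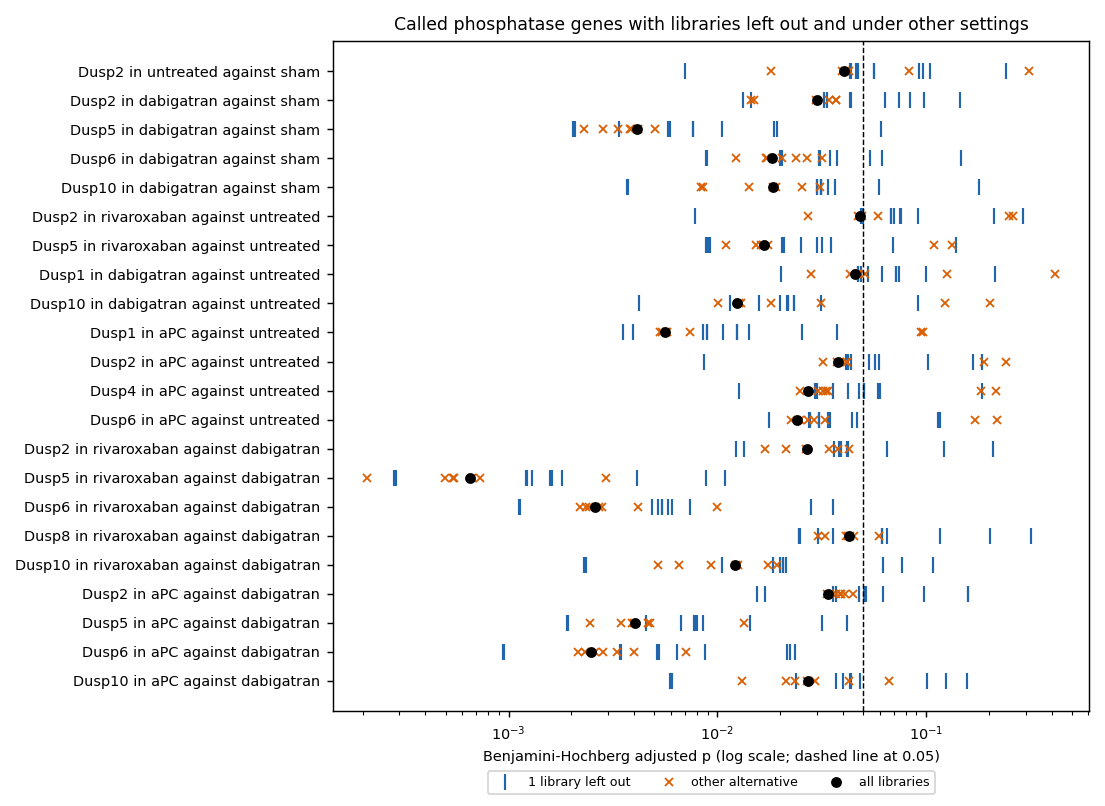
Adjusted p (horizontal log axis, dashed line at 0.05) of the 22 called results (rows): with all libraries (black dots), with each of the 11 libraries left out (blue ticks) and in the other settings tried (orange crosses). The rows of Dusp5 and Dusp6 in rivaroxaban and aPC against dabigatran lie wholly left of the line; all 6 rows of Dusp2 have ticks on both sides of it.

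The other genes of the cascade were followed through 12 lists. Of 11 tested MAP kinases, 1 was called in untreated against sham (10.6% of all genes were), Mapk6, an atypical MAP kinase (log2 fold change 1.09 ± 0.27; limma adjusted p = 0.0335), and it was also higher in dabigatran than in sham hearts (1.42 ± 0.27; limma adjusted p = 0.0075). In dabigatran against sham Mapk6 was the only MAP kinase called, beside 18.5% of all genes. Mapk6 was lower in rivaroxaban than in untreated (-1.20 ± 0.30) and than in dabigatran hearts (-1.53 ± 0.30), where Mapk7, which encodes ERK5, was lower too (-0.84 ± 0.24). These were 1 and 2 of the 11, beside 4.45% and 14.0% of all genes called lower. In aPC against dabigatran 4 of the 11 were lower (12.3% of all genes were), among them Mapk7 (-1.05 ± 0.24), Mapk6 (-1.27 ± 0.30) and Mapk12 (-0.59 ± 0.15). In aPC against untreated hearts Mapk3, which encodes ERK1, was higher (0.90 ± 0.19; limma adjusted p = 0.0143) and Mapk12, a p38 kinase of muscle, lower (-0.71 ± 0.15; limma adjusted p = 0.0144). These calls, 2 of the 11, were near the background of 17.6% of all genes called. The medians of this list lay between -0.26 and 0.13 in all 10 comparisons.

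Of the 7 MAP kinase kinases, 2 were called in untreated against sham (10.6% of all genes), both higher, and at most 2 in any other comparison. Map2k3, which activates p38, was 1 of them (1.38 ± 0.29; limma adjusted p = 0.0186) and lower in rivaroxaban than in untreated hearts (-1.70 ± 0.32; limma adjusted p = 0.0151). Map2k1, which activates ERK, was higher in dabigatran than in sham hearts by 0.53 ± 0.12 (limma adjusted p = 0.0154). Of 14 MAP3 and RAF kinases, 3 were called in untreated against sham (10.6% of all genes were). They were led by a higher Map3k6 (2.54 ± 0.38; limma adjusted p = 0.0052), with Map3k8 higher and Map3k4 lower. Map3k6, a relative of the apoptosis signal-regulating kinase, was lower than in untreated hearts in aPC (-3.21 ± 0.41), rivaroxaban (-1.88 ± 0.41) and dabigatran (-2.26 ± 0.41). The MAP kinase phosphatase Dusp7 was tested and called in no comparison; Dusp9 and Styxl1 lay below the filter.

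Sprouty, Spred and related genes are feedback inhibitors of ERK signalling upstream of the kinases, and 8 of 10 on the list were tested. In untreated against sham hearts 3 of the 8 were called, all higher (5.07% of all genes were called higher), with a list median of 0.97. They were Spry4 (1.47 ± 0.23; limma adjusted p = 0.0067), Spred3 (1.61 ± 0.25) and Errfi1 (1.07 ± 0.24), an inhibitor of the EGF receptor. The same 3 were higher in dabigatran than in sham hearts (11.7% of all genes were), with Spred3 at 1.96 ± 0.25, Errfi1 at 1.11 ± 0.24 and Spry4 at 1.03 ± 0.23. In rivaroxaban against untreated they were lower (Spry4 -1.84 ± 0.25, Spred3 -1.48 ± 0.28, Errfi1 -1.16 ± 0.26), beside 4.45% of all genes. In aPC against untreated 4 were lower (10.2% of all genes were), among them Spred3 (-2.21 ± 0.28), Spry4 (-2.19 ± 0.25) and Errfi1 (-1.55 ± 0.26). Against dabigatran, 5 were lower in rivaroxaban and 3 in aPC hearts (14.0% and 12.3% of all genes), with Spred3 at -1.83 ± 0.28 and -2.56 ± 0.28. In dabigatran against untreated only Spry1 was called (-1.39 ± 0.36, limma adjusted p = 0.0309), near the background of 13.8% of all genes. With 1 library left out, the count for untreated against sham was 6 without untreated replicate 17. For dabigatran against sham it was 1 without Dabi-202 and 5 without either untreated replicate. For rivaroxaban against untreated it was 0 without Riva-313, 1 without Riva-319 and 6 without untreated replicate 17, and for aPC against untreated 2 without aPC-792 and 7 without untreated replicate 17. For rivaroxaban against dabigatran it was 2 without Dabi-202 or Riva-313, and 3 without either aPC library, Dabi-204, Riva-319, sham 003 or sham 006. For aPC against dabigatran it was 5 without either untreated replicate. For dabigatran against untreated it was 0 without either dabigatran library or sham 006, and 2 and 3 without untreated replicates 17 and 19.

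The immediate-early transcription factors are first-line targets of ERK, JNK and p38, and 20 of 21 were tested. In untreated against sham hearts 7 were called, all higher (5.07% of all genes were), with a list median of 0.79. They were led by Myc (2.19 ± 0.33; limma adjusted p = 0.0057), Fosl2 (1.58 ± 0.30) and Fosl1 (1.32 ± 0.28). In dabigatran against sham 10 were higher and 1 lower (11.7% and 6.82% of all genes), led by Fosl1 (2.36 ± 0.28), Myc (2.70 ± 0.33) and Egr2 (1.91 ± 0.37). In aPC against untreated 12 were lower (10.2% of all genes were), with a list median of -1.50, led by Fosl2 (-2.03 ± 0.33), Nr4a1 (-2.0 ± 0.36) and Myc (-1.82 ± 0.36). In rivaroxaban against untreated 8 were lower (4.45% of all genes were), with Fosl2 at -1.95 ± 0.33 and Junb at -1.59 ± 0.30. Against dabigatran, 16 were lower in aPC and 10 in rivaroxaban hearts (12.3% and 14.0% of all genes). Egr2 led both, with -3.33 ± 0.40 in aPC and -3.49 ± 0.40 in rivaroxaban hearts. In dabigatran against untreated 2 were called, Egr3 (1.74 ± 0.45) and Egr2 (1.43 ± 0.40), both higher. This count was near the background of 13.8% of all genes called and 8.71% called higher. These counts also moved when 1 library was left out. For untreated against sham the count was 1 without untreated replicate 19 or sham 006 and 2 without sham 003. For dabigatran against sham it was 2 without Dabi-202, 5 without sham 006 and 7 without sham 003. For aPC against untreated it was 1 without aPC-792 and 4 without aPC-791, and for rivaroxaban against untreated 0 without Riva-313, 1 without Riva-319 and 4 without untreated replicate 19. For aPC against dabigatran it was 5 without Dabi-202, 6 without aPC-792 and 7 without aPC-791, and for rivaroxaban against dabigatran 5 without Dabi-202 and 6 without Riva-313. For dabigatran against untreated it was 0 without Dabi-202 or sham 003, 1 without untreated replicate 19, either rivaroxaban library or sham 007, and 6 without Dabi-204.

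Glucocorticoid receptor targets were listed because Dusp1 is induced by glucocorticoids. Of the 11 tested, 9 were higher in untreated than in sham hearts (5.07% of all genes were), with a list median of 1.65. Cdkn1a, a cell-cycle inhibitor, led with 3.27 ± 0.58 (limma adjusted p = 0.0115), before the chaperone Fkbp5 (2.64 ± 0.55) and the transcription factor Klf9 (0.84 ± 0.18). Dusp1 itself was not called in that comparison (0.50 ± 0.23; limma adjusted p = 0.163). Against untreated hearts, 8 of the 11 were lower in aPC, 6 in dabigatran and 4 in rivaroxaban hearts (10.2%, 5.08% and 4.45% of all genes), while Dusp1 was called lower in aPC and dabigatran hearts only. Examples are Zbtb16 (-2.81 ± 0.43) and Per1 (-2.71 ± 0.47) in aPC hearts, Klf9 (-1.74 ± 0.20) and Tsc22d3 (-1.17 ± 0.20) in dabigatran hearts, and Cdkn1a (-3.19 ± 0.64) in rivaroxaban hearts. Errfi1 stands on this list and on that of the feedback inhibitors. Single libraries decided these counts: for untreated against sham the count was 0 without untreated replicate 19 or sham 006 and 3 without sham 007. It was 1 for aPC against untreated without aPC-792 and 5 without untreated replicate 19, and 3 for dabigatran against untreated without untreated replicate 19 or Dabi-204. For rivaroxaban against untreated it was 0 without untreated replicate 19 or either rivaroxaban library, 2 without sham 003 or sham 007, and 7 without untreated replicate 17. In rivaroxaban against dabigatran, 3 were higher (among them Klf9 and Tsc22d3) and 1 lower, beside 9.39% and 14.0% of all genes. The count there was 2 in all without Riva-313 or Riva-319. In dabigatran against sham, 1 was higher and 2 lower (11.7% and 6.82% of all genes), and 0 in all without Dabi-202.

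**Figure D4:**
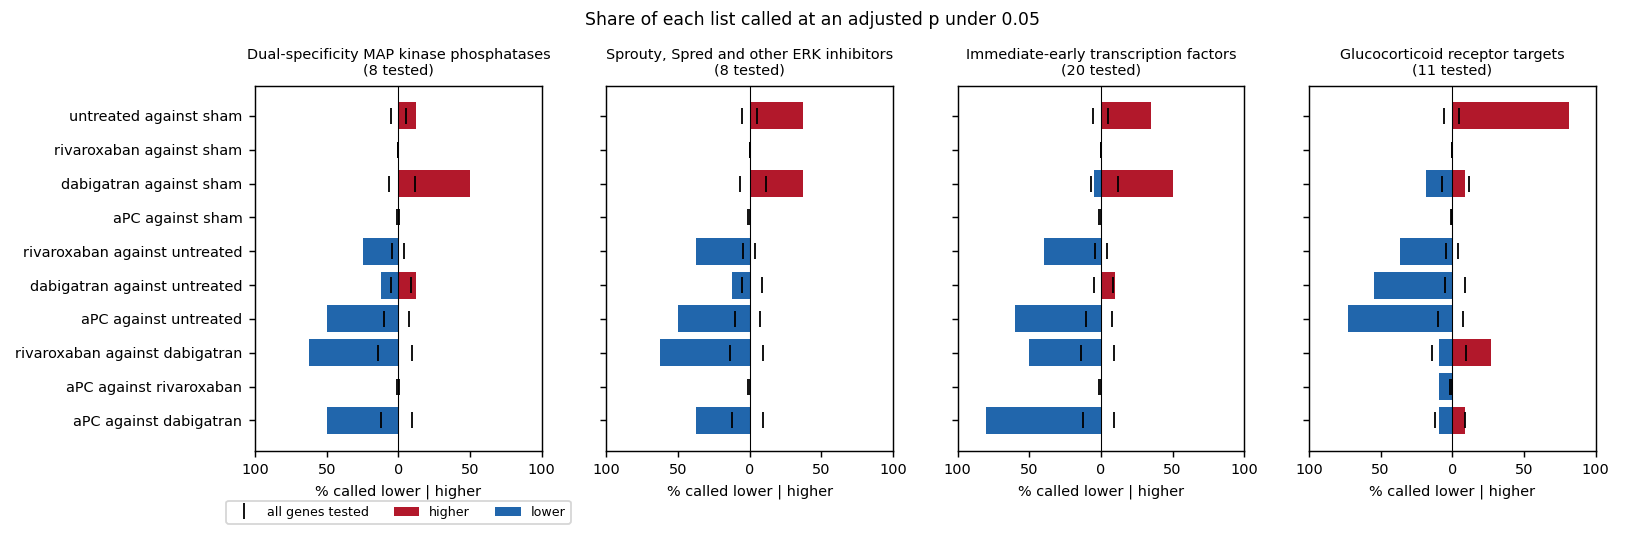
Share of each list called higher (red, right) or lower (blue, left) at an adjusted p under 0.05 in the 10 comparisons (rows), for the 8 phosphatases, 8 ERK feedback inhibitors, 20 immediate-early transcription factors and 11 glucocorticoid receptor targets; black ticks give the share over all genes tested. The glucocorticoid receptor targets reach their highest shares in comparisons with untreated hearts (9 of 11 higher in untreated than in sham), whereas the phosphatases reach theirs in rivaroxaban against dabigatran (5 of 8 lower). Without Dusp2, which passed the filter only through its high groups, that phosphatase count is 4 of 7.

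The other lists were mixed. Among 7 output genes of ERK, Ccnd1 (1.23 ± 0.16), Phlda1 (1.41 ± 0.28) and Etv4 (1.78 ± 0.40) were higher and Epha4 lower (-1.56 ± 0.38) in dabigatran than in sham hearts. Over all genes, 11.7% were higher and 6.82% lower there. In rivaroxaban against dabigatran, Ccnd1 (-1.72 ± 0.17) and Phlda1 (-2.25 ± 0.31) were among 4 that were lower (14.0% of all genes were), and Epha4 was higher (1.41 ± 0.41). In untreated against sham, Etv5 (1.26 ± 0.23), Epha2 (1.53 ± 0.31) and Etv4 (1.64 ± 0.40) were higher and Epha4 lower (-2.18 ± 0.38), beside 5.07% and 5.52% of all genes. Of 10 tested EGF receptor ligands and receptors, 2 were called in dabigatran against sham, near the background of 18.5% of all genes. These were the ligands Ereg (3.50) and Hbegf (2.58), both higher in dabigatran. In rivaroxaban against dabigatran 3 of the 10 were lower (14.0% of all genes were), among them Ereg and Hbegf (log2 fold changes of -4.78 and -2.99). The receptor gene Erbb4 was higher there (1.11), beside 9.39% of all genes. Like Dusp2, Ereg entered the test only through the untreated and dabigatran libraries, where it is high. Etv4, also high there, passed the filter only with the help of those libraries. Of the others, only Riva-319 (0.24) and sham 003 (0.51) reached a log2 CPM of 0 for Etv4. Of 10 kinases activated by MAP kinases, 3 were higher and 2 lower in dabigatran than in sham hearts (18.5% of all genes were called), and 2 were higher and 3 lower in rivaroxaban than in dabigatran hearts (23.3% of all genes). Of 7 tested scaffolds, Arrb2 (1.09) and Iqgap1 (0.77) were higher in dabigatran than in sham hearts, beside 11.7% of all genes. Of 8 tested atypical dual-specificity phosphatases, 3 were higher in aPC than in untreated hearts (Dusp22, Dusp23 and Dusp28), beside 17.6% of all genes called. Against dabigatran, 3 were higher and 1 lower in aPC hearts (21.5% of all genes called), and 2 were higher and 1 lower in rivaroxaban hearts (23.3%), with Dusp27 the lower one in both. In dabigatran against sham only Dusp27 was called (higher), near the background of 11.7% called higher.

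Markers of other cell types moved with several of these results, and their part in them was not tested. The 9 neutrophil markers summed to 42.6 to 109 CPM in aPC, 18.3 to 41.9 in rivaroxaban, 592 to 1042 in dabigatran, 108 to 165 in untreated and 31.9 to 50.3 in sham hearts. The defining marker Ly6g was at 0 reads in 6 libraries (aPC-792, both rivaroxaban and all 3 sham libraries), and no other marker of the list was at 0. The dabigatran libraries had the highest neutrophil sums, as they had the highest Dusp5, Dusp6 and Dusp10. The untreated libraries lay above sham in this sum, as they did for Dusp1, Dusp2, Dusp4, Dusp5 and Dusp6. Only Dusp2 of these 5 was called, and 43.5% of all genes tested likewise had no overlap between the 2 groups. Dusp1 was lower in dabigatran than in untreated hearts (log2 fold change -0.86 ± 0.25, limma adjusted p = 0.0455), a call that rested on few libraries. The neutrophil sums of aPC-791 and untreated replicate 17 were alike (109 and 108 CPM), and Dusp2 and Dusp5 of aPC-791 lay within the sham range. The 8 markers of monocytes and recruited macrophages summed to 514 to 585 CPM in aPC, 345 to 468 in rivaroxaban, 1194 to 1537 in dabigatran, 289 to 327 in untreated and 467 to 639 in sham hearts. As for Dusp10, only the dabigatran libraries stood above sham. Of 8 T and B cell markers, 7 were in the table, with sums of 3.20 to 3.84 CPM in aPC, 3.84 to 4.29 in rivaroxaban, 6.86 to 11.1 in dabigatran, 1.79 to 3.25 in untreated and 2.20 to 4.15 in sham hearts; Cd3d was at 0 in Riva-313 and sham 007.

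The 6 cardiomyocyte markers in the table, of 8, summed to 60098 to 63385 CPM in aPC, 52626 to 58543 in rivaroxaban, 41385 to 42616 in dabigatran, 63438 to 81112 in untreated and 53585 to 74514 in sham hearts, and none was at 0 in any library. The 9 resident macrophage markers ranged from 325 to 382, 217 to 281, 286 to 334, 174 to 259 and 300 to 361 CPM over the same groups in the same order. Endothelial markers (8 genes) lay between 1117 and 1503 CPM, fibroblast markers (8 genes) between 834 and 1980 and smooth muscle and pericyte markers (8 genes) between 1001 and 1631 CPM over all libraries. In untreated against sham hearts, 3 fibroblast markers were lower, with a median log2 fold change of -1.16 over the 8, and 2 smooth muscle and pericyte markers were lower, with a median of -0.81. The untreated libraries had the highest endothelial sums, 1427 and 1503 CPM. The single endothelial markers were divided: against sham, 2 were called higher and 3 lower in untreated hearts, with a median log2 fold change of -0.03. Of 5 erythroid markers none was in the table.

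Genes that resembled each phosphatase most were found by the root mean square difference of log2 values over the 11 libraries, each gene centred on its own mean, among 12506 named genes. For Dusp1, whose own SD was 0.53, they included Srrm2 (0.19) and Hdac4 (0.20). For Dusp5 they were Rin1 (0.24), Tgm1 (0.27) and Sh2b2 (0.27), and for Dusp2, with the lowest counts, Mthfd1l (0.35), Galnt6 (0.36) and Mcoln2 (0.40). For Dusp6 they were Clip2 (0.14), Ankrd10 (0.14) and Slx4 (0.15), for Dusp10 Glipr1 (0.18), Arhgap9 (0.24) and Hsp90aa1 (0.25), and for Dusp8 Nupr1 (0.20), Cflar (0.20) and Polr3d (0.21). For Dusp4 they were Ccdc9, Ankrd16 and Gipc2 (0.17 each), and for Dusp16, which varied least, Cand1 (0.09), Zzz3 (0.09) and Ints8 (0.10). No other phosphatase of the 8 was among the 3 nearest genes of any of them.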

How the data were processed

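One table of the series was used. As deposited by the authors it holds log2 CPM after TMM scaling. The submitters' processing notes name STAR and edgeR, beside bcl2fastq, FastQC and Trim Galore, and build mm10. How reads were counted, with which annotation and strand setting, and how genes were filtered is not given in the sources used here. The lowest log2 value, -3.93, was the same in every library. Once it was subtracted, 100% of the CPM values were a whole number of reads (tolerance 0.05), which gave the reads per gene; 3 reads lie at -2.83 to -2.41 log2 CPM.

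Genes at a log2 value of at least 0 in at least 3 libraries were tested (13541 of 16658). Two-sided limma-trend (limma 3.58.1, R 4.3.3) was fitted to 5 group means over 11 libraries and tested on simulated data. The simulation gave all libraries the same spread and depth, so it could not test the effect of the wider spread between the untreated libraries. The alternatives were 2 other filters, log2(CPM + 1), median centring, quantile normalization, library weights, a fit of only the 2 groups compared, and each library left out. Named genes are the 8 phosphatases, up to 3 called genes with the smallest p per pathway list and comparison, and the 3 genes nearest each phosphatase, of which 1 is not reported here. The 8 phosphatases, the 12 pathway lists and the 9 marker lists were chosen with earlier results of these data known. Positions and exon lengths are from GENCODE M21 and promoters from RefSeq.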

Additional observations from a re-analysis of the deposited data

How the results depend on the processing

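No fold change of the 22 calls reversed in any setting, and 126 of 148 of their values in the 7 settings other than left-out libraries were still called. The number of phosphatase genes called moved as follows. With a filter at a log2 value of 2, which Dusp2 did not pass, it was 0 for untreated against sham and 1 for rivaroxaban against untreated, where it was 1 on the log2(CPM + 1) scale too. With library weights it was 0 for untreated against sham and for rivaroxaban, dabigatran and aPC against untreated, 2 for aPC against sham and 3 for aPC against rivaroxaban. With only the 2 groups compared in the fit it was 0 in the same 4 comparisons, 1 for aPC against sham and 2 for aPC against rivaroxaban. With 1 library left out it ranged from 0 to 1 for untreated against sham and for aPC against sham, 0 to 0 for rivaroxaban against sham, 0 to 4 for dabigatran against sham and 0 to 3 for rivaroxaban and for dabigatran against untreated. It ranged from 1 to 5 for aPC against untreated, 2 to 5 for rivaroxaban and for aPC against dabigatran and 0 to 2 for aPC against rivaroxaban. Over all genes, library weights left 25 calls for untreated against sham, 37, 125 and 234 for rivaroxaban, dabigatran and aPC against untreated, and gave 1784 for aPC against sham and 3219 for aPC against rivaroxaban. Median centring moved the median of all genes by over 0.1 in dabigatran against untreated (to -0.05, against 0.05) and aPC against dabigatran (to 0.08, against -0.05); no phosphatase call reversed under it. The cause of these changes was not tested. No paired analysis was possible because the groups share no replicate numbers. Depth limits Dusp2 most, with 5 to 77 reads per library.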
